A study of Mus musculus with 8 samples.

Results

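The Hox cluster genes are the homeobox genes named Hoxa, Hoxb, Hoxc or Hoxd with a number, and their chromatin was examined in the cortex of adult mice with narrowed carotid arteries. They were taken from the GENCODE annotation of mm10 as every protein-coding gene whose symbol begins that way, which gave 39 of 21938 protein-coding genes. The Hoxa cluster held 11 of them (chr6:52152590-52263880), the Hoxb cluster 10 (chr11:96191316-96371256), the Hoxc cluster 9 (chr15:102918103-103039852) and the Hoxd cluster 9 (chr2:74665310-74768142). Each cluster ran from the lowest start to the highest end of its genes with 3 kb added on each side, and the same 3 kb were added to each gene to make its locus. Open chromatin was measured by ATAC-seq, in which the Tn5 transposase cuts accessible DNA in nuclei, with 1 library for each of 4 BCAS and 4 sham mice. They were C57BL/6 males of 14 weeks, and the cortex was taken 3 weeks after surgery. BCAS (bilateral common carotid artery stenosis) mice had a microcoil wound around each common carotid artery, with the narrower bore on the right, and sham mice had the arteries exposed without a coil. The labels name the right cerebral cortex, whereas the quality sheet of the study describes cortex of the whole brain, so the side of the tissue is uncertain. Whole tissue was used, so more cells of a type with an open site and a more open site in the same cells cannot be told apart.

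Hox genes encode homeodomain transcription factors that pattern the body from head to tail, and within each cluster they lie in the order in which they act along that axis. Genes with low numbers act in the hindbrain and neck and those with high numbers in the trunk, limbs and tail. The forebrain forms in front of the domain of Hox expression, and there the clusters are known as textbook targets of Polycomb silencing, with binding sites of the insulator protein CTCF that separate active from silent parts.

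The 4 clusters, 515.8 kb in all, were nearly empty of peaks in the cortex. When the peaks of all 8 libraries were merged wherever they overlapped, the clusters held 11 of the 197916 merged regions, namely 3 in Hoxa, 4 in Hoxb, 2 in Hoxc and 2 in Hoxd. This was 2.13 regions per 100 kb, against 5.94 in the 200 kb on each side of the clusters and 7.26 over the genome. Regions are numbered here by position within their cluster. The CTCF motif, searched on both strands within 100 bp of the median summit as CCA, any 2 bases, AG, any 2 bases and GGC, lay in 4 of the 11 regions and in 4.92% of all regions. The 4 sequences are shown because they include the only region called in all BCAS but no sham libraries (Hoxa region 3) and 1 of the 2 regions called in all 8 libraries (Hoxa region 2). They are the plus strand of mm10 (GRCm38) at chr6:52221755-52221875, chr6:52240533-52240561, chr2:74673124-74673244 and chr2:74715867-74715987, 5′ to 3′, with the match in capitals. Only a short stretch of Hoxa region 3 is given, because it lies in an untranslated exon of Hoxa10.
Hoxa region 2: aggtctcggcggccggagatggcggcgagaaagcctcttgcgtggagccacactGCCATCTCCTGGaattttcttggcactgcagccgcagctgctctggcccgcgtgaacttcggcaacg
Hoxa region 3: gggagtgcGCCATCTCGTGGcggctgcga
Hoxd region 1: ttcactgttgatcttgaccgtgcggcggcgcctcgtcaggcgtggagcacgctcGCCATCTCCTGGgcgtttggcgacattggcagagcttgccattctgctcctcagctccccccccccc
Hoxd region 2: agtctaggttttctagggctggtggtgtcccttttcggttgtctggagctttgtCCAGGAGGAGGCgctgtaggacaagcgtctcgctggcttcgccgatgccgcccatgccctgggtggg

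In Hoxa regions 2 and 3 and in Hoxd region 1 the match was on the minus strand, and in Hoxd region 2 on the plus strand. The matches lay 7, 11, 13 and 16 bp from the summits. With the A of CCA left free, a setting chosen after seeing the data, Hoxb region 2 was added, making 5 of 11 regions against 8.22% of all regions. Of the other motifs searched in the same window, the PBX-HOX motif TGATTNAT lay in 0 of 11 Hox regions and 2.82% of all regions, the YY1 motif AANATGGC in 0 and 3.05%, the PU.1 motif GAGGAAGT in 0 and 2.89%, and the DR5 retinoic acid response element in 0 and 0.0298%. A match is a description of the sequence and not a measured binding site. The Hox regions were also rich in G and C, with a median of 60.7% in the 201 bp around the summit against 49.2% for all regions, and in CpG, with a median ratio of observed to expected CpG of 0.56 against 0.226. They were narrower than most, with a median of 303 bp against 386 bp.

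The second region called in every library was Hoxb region 3, which had no CTCF match. It is shown for comparison, as the plus strand of mm10 at chr11:96301952-96302072, in an intron of the noncoding gene Hoxb5os.
Hoxb region 3: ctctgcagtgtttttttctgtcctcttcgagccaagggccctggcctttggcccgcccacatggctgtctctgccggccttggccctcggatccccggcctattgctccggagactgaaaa

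Most Hox genes had no peak at all. Of the 39 members, 23 had no peak at their locus in any library and 16 had a peak in at least 1 library, which is 41% of the Hox genes against 82.5% of all protein-coding loci. Only 4 members (Hoxa7, Hoxa9, Hoxb5 and Hoxb6) had a peak in all 8 libraries, or 10.3% against 74.1%. A missing peak means that the site did not pass the authors' threshold, not that the DNA was closed. The members without a peak included Hoxa2, Hoxa4, Hoxa5 and Hoxa13, then Hoxb1, Hoxb2, Hoxb3, Hoxb4, Hoxb7 and Hoxb13, then Hoxc4 and Hoxc8 to Hoxc13, and Hoxd1, Hoxd8, Hoxd9, Hoxd10 and Hoxd11. With loci drawn from the basic coding transcripts in place of the gene records, a choice made after seeing the data, 24 members had no peak, Hoxd4 joining them, and Hoxc5 and Hoxc6 had a peak in 1 library each.

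Each cluster held a long stretch without a peak in any library. It spanned 59.0 kb of the Hoxa cluster (53% of it) and held the whole of Hoxa2, Hoxa4, Hoxa5 and Hoxa6. In Hoxb it was 59.4 kb (33%) with Hoxb1 to Hoxb4, in Hoxc 81.1 kb (66.6%) with the 6 genes from Hoxc13 to Hoxc8, and in Hoxd 52.0 kb (50.6%) with Hoxd1. Divided into bins of 10 kb, the clusters had a peak in 11 of 54 bins and their flanks in 68 of 160. Hoxa6 counts among the genes with a peak only because its 3 kb margin reached Hoxa region 1. Likewise, Hoxa9, Hoxa11, Hoxb5, Hoxb6, Hoxb8, Hoxb9, Hoxd12 and Hoxd13 had a peak only in the 3 kb margin and none inside the gene record.

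**Figure D1:**
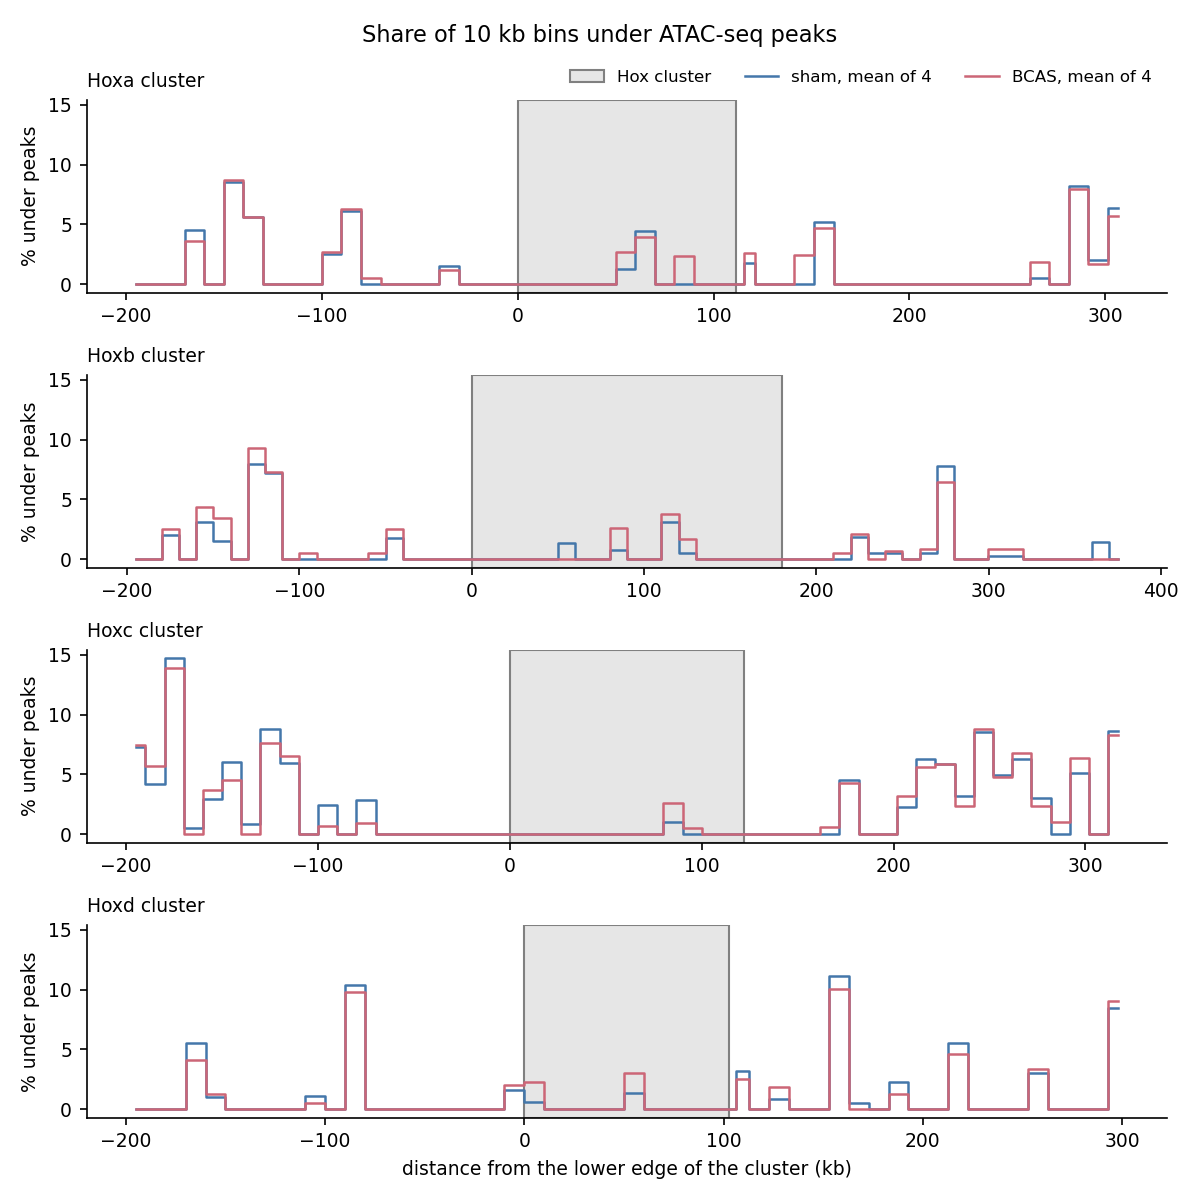
Percent of each 10 kb bin under peaks (y axis) against the distance in kb from the lower edge of each Hox cluster (x axis), as the mean of 4 sham (blue) and 4 BCAS (red) libraries, with the cluster shaded and 200 kb on each side. Inside the clusters no bin passes 4.45%, whereas the flanks reach 14.7%.

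The clusters were less covered by peaks than the DNA beside them in every mouse. The covered share of the 4 clusters was 0.105, 0.466, 0.434 and 0.105% in sham libraries 1 to 4 and 0.568, 0.446, 0.503 and 0.443% in BCAS libraries 1 to 4. In the same order their 200 kb flanks were covered to 1.42, 1.80, 1.86 and 1.40% in sham and 1.96, 1.58, 1.55 and 1.41% in BCAS. Sham libraries 1 and 4 had the emptiest clusters, and for the 4 clusters pooled every cluster value was below every flank value. Taken singly the margin was narrower for Hoxa, at most 0.946% against at least 1.07% in its flanks, and for Hoxb, at most 0.626% against at least 0.753%. The mean was 0.384% ± 0.177 (SD, n = 8) in the clusters and 1.62% ± 0.22 in the flanks, a difference of -1.24 percentage points ± 0.169 that was lower in 8 of 8 libraries (exact two-sided sign-flip permutation test, p = 0.00781, the smallest that 8 libraries allow). By cluster, the mean covered share of the flanks was 1.35% for Hoxa, 0.992% for Hoxb, 2.83% for Hoxc and 1.31% for Hoxd, so the Hoxc cluster lay in the most covered surroundings. The genome-wide share, 1.64 to 2.43%, was between 3.71 and 15.7 times that of the clusters.

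Hox promoters mostly lacked peaks, the CpG-rich ones included. A peak within 1 kb of a coding transcript start was found for 2 of 39 Hox genes in any library, or 5.13%, against 70.6% of the 21851 protein-coding genes with such a start. The 2 were Hoxa10, in all 4 BCAS libraries, and Hoxc5, in BCAS library 1. Counted from the start of the gene record instead, 3 Hox genes had one, namely Hoxa7 in 8 libraries and Hoxa10 and Hoxc6 in 4 each. Promoters rich in CpG are the kind that is usually open in most tissues, and 20 of the 39 Hox promoters were of this kind (at least 55% GC and an observed to expected CpG ratio of at least 0.6 in the 501 bp around a start). Among the CpG-rich promoters of all genes, between 95% and 97.2% had a peak in a given library. Among those of the Hox genes, none had one in any sham library, and 1 of 20 (Hoxa10) had one in each BCAS library. The other Hox promoters were at 0% in 7 libraries and at 5.26% in BCAS library 1, against 31.9 to 39.5% of all other promoters. No test was made, since neighbouring genes share regulation and promoters of 1 library are not replicates.

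**Figure D2:**
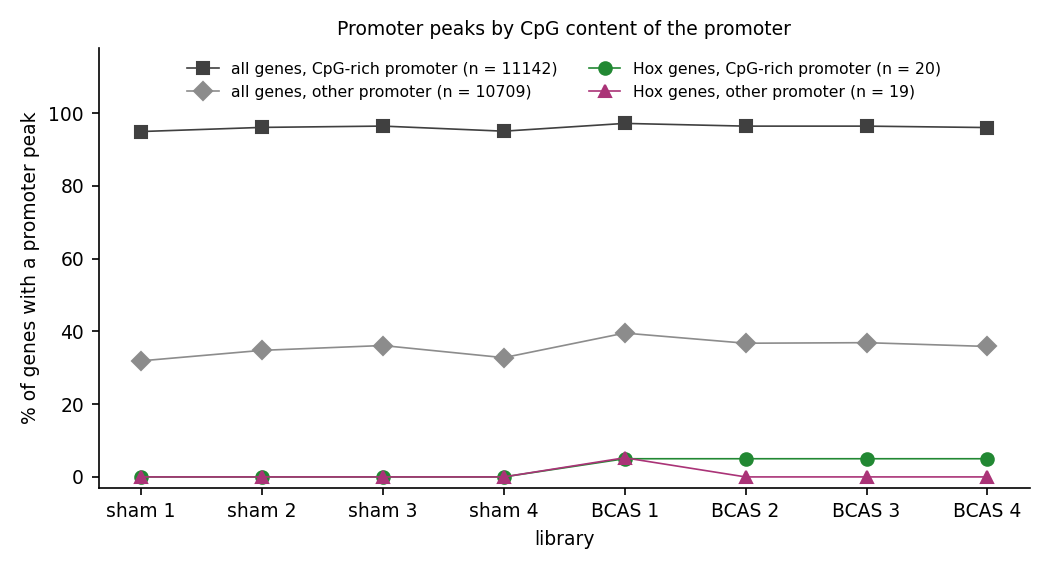
Percent of genes with a peak within 1 kb of a transcript start (y axis) in each of the 8 libraries (x axis), for CpG-rich and other promoters of all genes (grey) and of Hox genes (colours). Hox promoters stay at 0 to 5.26% in every library, whereas CpG-rich promoters of all genes lie between 95 and 97.2%.

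The 11 regions were found in BCAS libraries more often than in sham libraries. Hox regions had a peak in more BCAS than sham libraries in 8 of 11 cases (72.7%), in more sham than BCAS libraries in 1 (9.09%) and in equal numbers in 2. Over all merged regions these shares were 30.4% and 23.2%, and over the 9729 regions with the CTCF motif they were 33.6% and 13.4%. Hox peaks ranked from low to high in their lists, with between 12.8 and 84.6% of a library's peaks at a lower -log10 q than the Hox peak. The sham libraries with the fewest peaks, sham 1 (107391) and sham 4 (112260), each held 2 Hox peaks, against 8 and 7 in sham 2 and 3 and 10, 8, 9 and 9 in BCAS 1 to 4. BCAS library 4, with 119565 peaks, had the shortest list of the BCAS libraries, longer than those of sham 1 and sham 4. Without sham 1 and 4, a setting chosen after seeing the data, 5 of 11 regions were found in a larger share of BCAS than of sham libraries, 1 in a smaller share and 5 in equal shares, against 23.9% larger and 29.9% smaller over all regions. The number of Hox members with a peak in every library then rose from 4 to 10, whereas 23 still had none. The part of these short lists in the difference between groups was not tested.

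**Figure D3:**
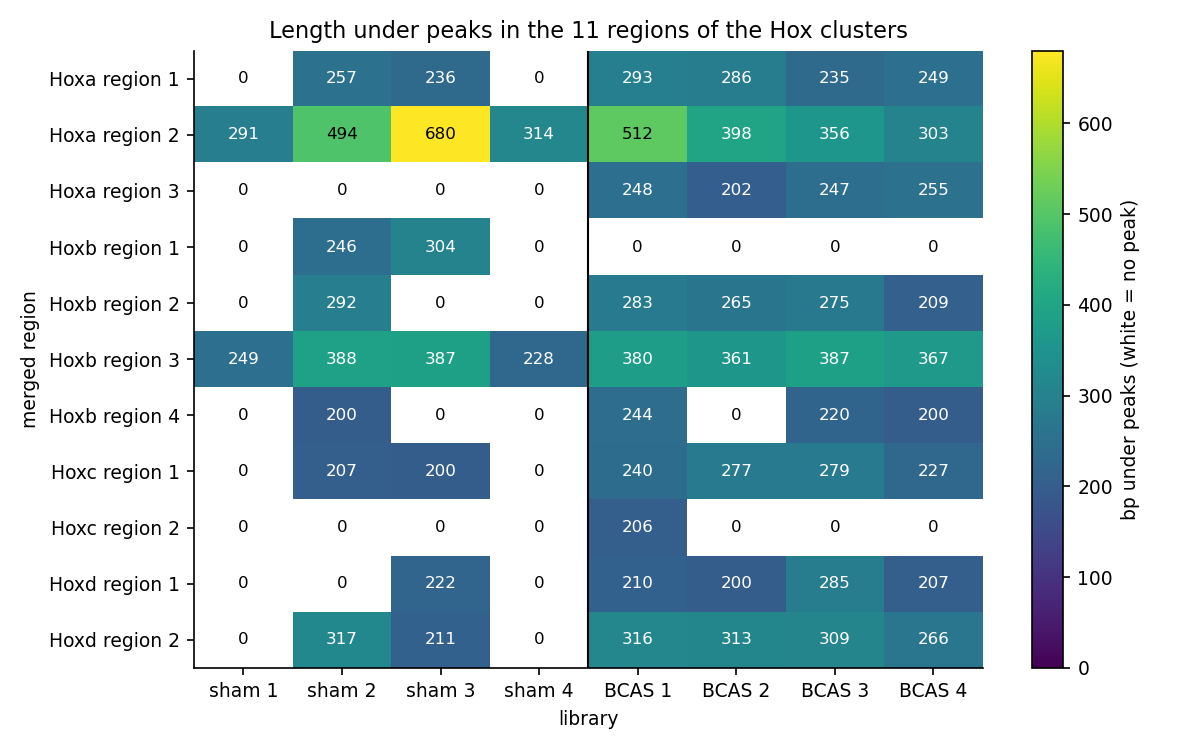
Length under peaks in bp for the 11 merged regions of the Hox clusters (y axis) in each library (x axis), with white for no peak. Hoxa region 2 and Hoxb region 3 are filled in all 8 columns, Hoxa region 3 in the 4 BCAS columns, and sham 1 and sham 4 hold 2 peaks each.

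The only Hox region with a peak in every BCAS library and in no sham library lay at the start of Hoxa10. Hoxa10 and its neighbour Hoxa11 pattern the lower spine, the limbs and the reproductive tract. Hoxa region 3 (chr6:52240419-52240685), 296 bp from a transcript start of Hoxa10, was 0 bp in all 4 sham libraries and 248, 202, 247 and 255 bp long in BCAS libraries 1 to 4. This is 1 of 11 regions against 1.62% of all regions, and no Hox region showed the reverse pattern. It was a low-ranking peak, above 20.3 to 45.8% of the peaks of its library. When the 8 lists were reduced to the same length by -log10 q it no longer met that rule. The mean of 119 bp over the 8 libraries was below the 200 bp needed for the test of loci. Without that minimum, Hoxa10 and Hoxa11, which share this peak, were both called higher (adjusted p = 0.0222, limma). They were 2 of 16 Hox loci tested, against 552 of 18091 loci called higher in that setting. Both entered that test only through the BCAS libraries, so this p lends no support to a difference. No fold is given, because both loci were at 0 bp in all sham libraries.

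The other 2 regions of the Hoxa cluster served 4 further genes. Hoxa region 2 (chr6:52221287-52222009), at the outer end of the Hoxa7 gene record but outside its basic coding transcripts, is the main peak of Hoxa7 and Hoxa9, of which Hoxa9 is best known from blood progenitors. Hoxa9 was covered over 291, 494, 680 and 314 bp in sham and 512, 398, 356 and 303 bp in BCAS libraries. Its groups overlapped, with the longest and the shortest values both in sham, and log2 BCAS over sham was -0.15 (SE 0.20, adjusted p = 0.851, limma on log2 of covered bp scaled to the library total plus 200 bp). Hoxa region 1 (chr6:52211590-52211890) lay in an intron of Hoxa3, which acts in the pharyngeal arches and thymus, and was 0, 257, 236 and 0 bp in sham and 293, 286, 235 and 249 bp in BCAS. Hoxa3 missed the 200 bp minimum with a mean of 194.5 bp. Hoxa7 took in both peaks, with 291, 751, 916 and 314 bp in sham and 805, 684, 591 and 552 bp in BCAS. Its means were 568 ± 314 and 658 ± 113 bp (SD, n = 4 each), a log2 difference of 0.19 (SE 0.20, adjusted p = 0.777, limma), again with overlapping groups.

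In the Hoxb cluster the constant peak was Hoxb region 3 (chr11:96301806-96302228), 1500 bp from a start of Hoxb5, and it belonged to the loci of Hoxb5 and Hoxb6, both patterning genes of the trunk. It was 249, 388, 387 and 228 bp long in sham and 380, 361, 387 and 367 bp in BCAS. Sham 1 and 4 lay below the BCAS range and sham 2 just above it, and the log2 difference was 0.13 (SE 0.21, adjusted p = 0.882, limma) for both genes. Hoxb region 2 (chr11:96278811-96279113), between Hoxb8 and Hoxb9, was 0, 292, 0 and 0 bp in sham and 283, 265, 275 and 209 bp in BCAS. Hoxb8 is known in the brain for the excessive grooming of mice that lack it, and Hoxb9 for the thoracic spine. Hoxb9, with the longer share of the peak, had a mean of 165.5 bp and was not tested. The remaining regions lay outside every Hoxb locus. Hoxb region 1 (chr11:96243770-96244096) was the only one with more sham libraries, at 246 and 304 bp in sham 2 and 3 and 0 bp elsewhere. Hoxb region 4 (chr11:96311615-96311858) was found in sham 2 and in BCAS 1, 3 and 4.

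The Hoxc and Hoxd clusters had no peak at all in sham 1 and sham 4. Hoxc region 1 (chr15:102999218-102999520) lay in the overlapping loci of Hoxc5 and Hoxc6, genes of the neck and forelimb level, whose gene records are far longer than their basic coding transcripts, at 13.6 against 2.31 kb for Hoxc6. It was 0, 207, 200 and 0 bp in sham and 240, 277, 279 and 227 bp in BCAS. The longest sham value, 207 bp, was close to the shortest BCAS value, 227 bp, and the values of 0 bp were in sham 1 and 4, the libraries with the fewest peaks. Hoxc region 2 (chr15:103013559-103013764), 172 bp from a start of Hoxc5, was found in BCAS 1 with 206 bp and in no other library. Hoxc5 and Hoxc6, with a mean of 204.5 bp before scaling, were not among the loci tested. The remaining 7 Hoxc genes were at 0 bp, so only 2 genes of the cluster could be ranked.

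Hoxd region 2 (chr2:74715788-74716144) lay in an intron of Hoxd3 and an exon of its noncoding antisense gene Hoxd3os1, in the loci of Hoxd3 and Hoxd4, which pattern the neck and hindbrain. It was 0, 317, 211 and 0 bp in sham and 316, 313, 309 and 266 bp in BCAS, so sham 2 reached the highest value of all. The log2 difference was 0.74 (SE 0.34) for both genes, with an adjusted p of 0.325 by limma. Hoxd region 1 (chr2:74673023-74673307, intergenic), shared by the loci of Hoxd12 and Hoxd13, which shape the digits, was 0, 0, 222 and 0 bp in sham and 210, 200, 285 and 207 bp in BCAS. Sham 3 lay within the BCAS range, and both loci had a mean of 140.5 bp and were not tested.

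No Hox locus passed the test between BCAS and sham. Only 6 of the 39 members (Hoxa7, Hoxa9, Hoxb5, Hoxb6, Hoxd3 and Hoxd4) had the mean of 200 bp needed, and 0 were called at an adjusted p of 0.05 by limma. At an unadjusted p of 0.05, 2 passed, Hoxd3 and Hoxd4, which share 1 peak, against 10.6% of all loci higher and 4.39% lower at that p. These 2 reached the minimum through the BCAS libraries, with a mean of 132 bp in sham and 301 bp in BCAS, and without any 1 BCAS library, or without sham 2, they fell under it and were not tested, so their p lends no support to a difference. Over all 17035 tested loci, 538 or 3.16% were called higher and 64 or 0.376% lower (222 and 1 without scaling to the library total), with a median log2 difference of 0.0014. The median over the 6 Hox loci, Hoxd3 and Hoxd4 included, was 0.16, and is given as a description only.

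The covered share of the clusters was higher in BCAS on average, and the difference did not pass the exact test. For the 4 clusters together the mean was 0.277% ± 0.2 (SD, n = 4) in sham and 0.49% ± 0.0591 in BCAS, a difference of 0.213 percentage points (exact two-sided permutation test, p = 0.114). The groups overlapped, since sham 2 (0.466%) lay above BCAS 2 and 4. In Hoxc the difference was 0.169 points, from 0.0836% ± 0.0965 to 0.252% ± 0.0785, and in Hoxd 0.33 points, from 0.182% ± 0.216 to 0.512% ± 0.049. Neither of these overlapped between groups, and each had an exact permutation p of 0.0286, the smallest that 4 against 4 allows, which became 0.0571 after adjustment over the 4 clusters. Sham reached at most 0.17% and BCAS at least 0.186% in Hoxc, and 0.421% and 0.46% in Hoxd. Both clusters were at 0% in sham 1 and 4. How often other stretches of the genome separate the groups in this way was not examined. Hoxa differed by 0.295 points (exact permutation p = 0.143, adjusted 0.190) and Hoxb by 0.125 points (exact permutation p = 0.343, adjusted 0.343). Without sham 1 and 4 the difference for all clusters was 0.0401 points (exact permutation p = 0.533), and Hoxb turned to -0.0616 points. Hoxc then differed by 0.0852 points (exact permutation p = 0.2), Hoxd by 0.147 points (exact permutation p = 0.0667) and Hoxa by 0.0562 points (exact permutation p = 0.6), each less than with all libraries. The p of Hoxd is the smallest that the remaining libraries allow, so no difference could pass in this setting. The Hoxd values still did not overlap between groups.

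Divided by the size of each list, the values of the groups did not overlap, although by a narrow margin, whereas lists cut to equal length gave no difference that passed. The genome-wide covered share was 15.7, 4.33, 5.14 and 15.6 times that of the clusters in sham and 4.28, 4.26, 3.71 and 4.06 times in BCAS. Sham 2 and BCAS 1 thus differed by little. The ratio of cluster share to genome share was higher in BCAS by 0.108 (exact permutation p = 0.0286). Hox peaks per 100000 peaks numbered 1.86, 6.03, 4.83 and 1.78 in sham and 6.22, 6.25, 7.3 and 7.53 in BCAS, a difference of 3.2 (exact permutation p = 0.0286). With the lists cut to equal length by -log10 q, the covered share was higher in BCAS by 0.2 points (exact permutation p = 0.114). The number of peaks in a list did not differ between groups beyond its spread, at 124338 ± 17604 in sham and 132899 ± 18864 in BCAS (exact permutation p = 0.543). The labels name no batch. Split by the read GC percent of the quality sheet, sham 1, 2 and 3 fell with BCAS 1 in the higher class, and sham 4 with BCAS 2, 3 and 4 in the lower class. Within these classes the covered share of the clusters was higher in BCAS by 0.234 and 0.359 points, each with 1 library in one of the groups.

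**Figure D4:**
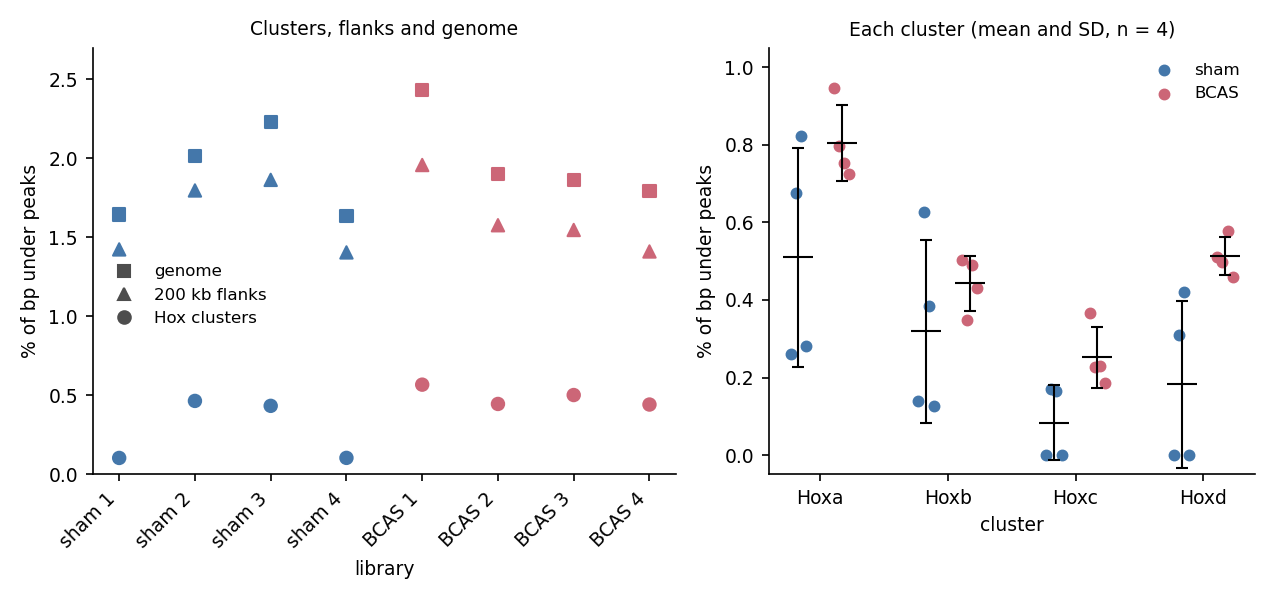
Left, percent of bp under peaks (y axis) in each library (x axis) for the genome (squares), the 200 kb flanks (triangles) and the Hox clusters (circles), with sham in blue and BCAS in red. Right, the same percent for each cluster, with points for libraries and bars for mean and SD (n = 4). Clusters lie below flanks in every library, and sham 1 and 4 are the lowest points of all 4 clusters.

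Loci of microglial and vascular markers were covered over a greater length in most BCAS libraries, with none of them called. All loci of the 6 excitatory neuron markers had a peak in all 8 libraries, as did those of the 5 astrocyte and 5 oligodendrocyte markers, and 4 of 6 inhibitory neuron markers. For 5 microglial markers (Csf1r, Cx3cr1, P2ry12, Tmem119 and C1qa) the summed scaled length was 13693 to 17225 bp in sham and 17129 to 19332 bp in BCAS. All 5 had a positive log2 difference, 0 were called by limma and 2 were higher at an unadjusted p of 0.05. For 6 endothelial and mural markers (Cldn5, Pecam1, Flt1, Pdgfrb, Rgs5 and Vtn) the sum was 8694 to 12995 bp in sham and 12978 to 14991 bp in BCAS. Of these, 5 of 6 had a positive log2 difference, 0 were called by limma and 2 were higher at an unadjusted p of 0.05. Over all tested loci 50.4% were positive and 10.6% higher at that p. For both lists the ranges of the groups overlapped only at their edges, and no marker named here was at 0 in all libraries. The sums for neurons, astrocytes and oligodendrocytes overlapped more widely, at 20812 to 23839 against 20331 to 22632 bp for excitatory neurons, 4249 to 5352 against 3493 to 5378 bp for inhibitory neurons, 12630 to 14767 against 13896 to 16499 bp for astrocytes and 13276 to 18310 against 14714 to 16837 bp for oligodendrocytes. The part of these cells in the Hox peaks was not tested.

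Genes that work with or upon Hox genes had peaks at their loci in every library, whereas 4 of the 39 Hox genes did. All 9 Hox cofactors of the Pbx, Meis and Pknox families, which bind DNA together with Hox proteins, had a peak in all 8 libraries, and all 32 Polycomb and trithorax genes, which keep Hox genes silent or active, did too. None of the 9 cofactors was called, and the smallest p belonged to Meis2 with -0.22 (SE 0.08, adjusted p = 0.152, limma). None of the 32 Polycomb and trithorax genes was called either, and the smallest p belonged to Kmt2a, the methyltransferase that maintains Hox expression, with -0.35 (SE 0.11, adjusted p = 0.0966), and to Pcgf6 with -0.27 (SE 0.11, adjusted p = 0.243). At an unadjusted p of 0.05, 2 of 9 cofactors and 3 of 32 Polycomb and trithorax genes were lower and 0 higher, against 4.39% lower and 10.6% higher over all loci. The medians of both lists, -0.05 and 0.0014, were near that of all loci.

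Forebrain homeobox genes, which pattern the cortex and its neighbours, had a peak in all 8 libraries for 19 of 22 genes. One of the 20 tested, Cux1, a marker of upper-layer neurons, rose by 0.37 on the log2 scale (SE 0.09, adjusted p = 0.0366, limma). The call held in 7 of 19 alternatives, with adjusted p from 0.00186 to 0.9996, and 1 of 20 is 5% of the list against 3.16% of all loci. Prox1 followed with 0.86 (SE 0.23, adjusted p = 0.0516, and called in 5 of 19 alternatives), and the median was 0.08. In the retinoic acid pathway, which switches on Hox genes in the embryo, all 15 genes had a peak in some library and 0 of 13 tested were called. The smallest p belonged to the synthesis enzymes Aldh1a3 with 0.67 (SE 0.20, adjusted p = 0.0822, and called in 3 of 19 alternatives) and Aldh1a1 with -0.36 (SE 0.11, adjusted p = 0.0941). The mean covered share of the loci was 3.25% for all protein-coding genes, between 3.61 and 4.08% for these 4 lists, and 0.633% for the 39 Hox genes.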

How the data were processed

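ATAC-seq peak lists of 8 mouse cortex libraries were used. Per the labels and the study's methods, the authors used FastQC and Trim Galore on the reads, Bowtie2 2.3.4.3 for alignment to mm10, SAMtools 1.9 once duplicates were removed, and MACS2 for peaks of each library. MACS2 options and any Tn5 shift were not given in the sources used here. Deposited columns are an integer score, a fold enrichment (ratio), -log10 of p and of q (the authors' MACS2 values), and the summit as a distance in bp. Position, summit and -log10 q were used (lowest -log10 q value 1.31). The lists hold no read counts, so counting error is unknown, depth cannot be read from them, and the authors' DiffBind test was not run. The study reports an average mapping depth and refers to its quality sheet, but depth per library was not used here.

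Peaks on 21 chromosomes were merged where they overlapped by 1 bp or more. Covered bp per locus was scaled to the library's total, and log2 (bp + 200) was tested with limma 3.58.1 (variance trend, Benjamini-Hochberg) in R 4.3.3 over the 17035 loci with a mean scaled length of at least 200 bp. Single values were compared by exact permutation (Python 3.11.15, numpy 2.4.6, pandas 2.3.3). Sequence came from GRCm38 through pysam 0.24.0, and plots were drawn with matplotlib 3.10.9. The limma script was tested on simulated data. Values in every library were given for called members and for the 3 members of each cluster with the longest mean covered length, and for the regions behind them, and 2 genes with the smallest p were named per list. Some genes of the lists are not reported here, and the sum over microglial markers was taken over the others. The members and lists were chosen with earlier results of these data known. Replicate numbers were taken not to pair mice, since libraries with the same number correlated at -0.16, -0.01, -0.1 and 0.14 after group means were removed. Alternatives were a -log10 q of at least 5, lists of equal length, other pseudocounts, minimums, windows, scalings and flanks, covariates for read GC class and number of peaks, the replicate number as a block, and leaving out libraries. Leaving out sham 1 and 4 together, loci from coding transcripts and the looser CTCF motif were added after seeing the data.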

Additional observations from a re-analysis of the deposited data

Results flagged for a closer look

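In 34 groups of 4 libraries, covering the share of each cluster and the 3 longest-covered members of each cluster, 5 values stood apart by Dixon's test at the 95% level. For independent and normally distributed values chance does this in about 1 group of 20. That rate does not apply here, because members share peaks and a peak in 1 library with 0 bp in the others is always flagged. At Hoxd3 and Hoxd4, which share 1 peak, BCAS 4 had 266 bp and the other BCAS libraries 316, 313 and 309 bp. At Hoxb9, sham 2 had 292 bp and the other sham libraries 0 bp. At Hoxd12, sham 3 had 222 bp against 0 bp in the other sham libraries, and BCAS 3 had 285 bp against 210, 200 and 207 bp. At Hoxb9 and in the sham libraries at Hoxd12 the value that stood apart was a peak called in 1 library only, whereas in the BCAS libraries at Hoxd3, Hoxd4 and Hoxd12 a peak was present in all 4 and differed in length.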

How the results depend on the processing

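The lower coverage of the Hox clusters than of their flanks kept its direction and its call under every alternative, with differences between -1.91 points (flanks of 500 kb) and -0.589 points (100 kb) and, leaving out each library, between -1.28 and -1.21 points. The difference between BCAS and sham in covered share was 0.213 points, and leaving out each library it ran from 0.155 to 0.275 points, passing the exact permutation test at p = 0.0286 without sham 2. It also passed at p = 0.0286 (exact permutation) as a ratio to the genome-wide share (0.108) and as peaks per 100000 peaks (3.2), and without sham 1 and 4 it was 0.0401 points. With the replicate block it was 0.213 points (exact sign-flip permutation, p = 0.25, where 4 pairs cannot go below 0.125). It was 0.222 points with the stricter threshold and 0.2 points with lists of equal length, and neither passed. With read GC strata it was 0.296 points, and there the labelings within the classes are too few for any difference to pass. The count of Hox loci called stayed at 0 in 18 alternatives, the replicate block (0 of 6 tested) and each library left out among them. With no minimum it was 2 of 16 tested, Hoxa10 and Hoxa11, which share a peak. In that setting 552 of 18091 loci were called higher and 58 lower. Over all loci the calls went from 538 higher and 64 lower to 222 and 1 without scaling, 245 and 8 with the read GC class, 109 and 3 for promoters only, 419 and 49 with a pseudocount of 50 bp, 422 and 56 for gene bodies, 778 and 160 with the replicate block, and 284 to 666 higher and 25 to 90 lower leaving out each library. The log2 difference turned to -0.19 for Hoxa7 over the gene body, and over promoters only to -0.15 for Hoxa7, -0.035 for Aldh1a3, 0.14 for Kmt2a and 0.021 for Mtx2, none of them called. Cux1 lost its call in 12 alternatives, among them lists of equal length, no scaling, the number of peaks as a covariate and each of BCAS 1, 2 and 3 and sham 2, 3 and 4 left out, and it kept its direction in all. With the replicate block Cux1, Prox1 and Aldh1a3 were called (adjusted p = 0.00186, 0.00293 and 0.00779, limma). Regions with a peak in all of one group and none of the other numbered 1, and 0 with lists of equal length, 1 to 2 leaving out each library (2 without sham 2 or without sham 3), and 2 without sham 1 and 4, of which 1 was found only in sham. Regions found more often in BCAS went from 8 to 5, and members with a peak in every library from 4 to 10, without sham 1 and 4. Depth could not be read from the lists, so a site with no peak may lie below the threshold of a shallow library.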

Other observations

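Of the 16 named protein-coding genes that share the clusters or lie within 200 kb of them, 10 had a peak at their locus in all 8 libraries and 5 in none. Of the 5 without a peak, named after their values were seen, Evx1 and Evx2 are homeobox genes at the ends of the Hoxa and Hoxd clusters, and the others were Calcoco2, Gip and Igf2bp1. None of the 11 tested was called by limma. The smallest p belonged to Skap1 with a log2 difference of -0.30 (SE 0.12, adjusted p = 0.227) and Mtx2 with -0.30 (SE 0.13, adjusted p = 0.266), and the median was -0.03.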
